A study of Rattus norvegicus with 20 samples.

Results

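The genes described here encode enzymes that attach glucuronic acid or sulfate to small molecules, and the enzymes that make the activated cofactors for both reactions. A probe set was taken where its only annotated gene symbol was Ugt2a1, Ugdh, Sult1d1, Sult4a1, Sult1a1, Sult1c2, Sult1b1, Papss1 or Papss2. These are 9 of the 14217 genes named on the array, carried by 10 of 31042 probe sets, since Papss2 has a second one. The 9 genes were 1 UDP-glucuronosyltransferase, 5 cytosolic sulfotransferases and 3 cofactor enzymes. A further probe set that matches Sult1c2 and another gene was left out of all counts.

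Adult Sprague Dawley rats, untreated and with no genetic modification or disease, gave nasal epithelium of the olfactory and the respiratory type, which was profiled on 20 Affymetrix rat arrays of 1 sample each. In males 6 arrays were olfactory and 6 respiratory, and in females 2 were olfactory and 6 respiratory. Rats of both sexes were 11, 13 or 14 weeks old. The labels name 13 animals, 7 males and 6 females, and 7 of them (5 males and 2 females) gave both tissues. Tissue was collected by hand, from the septum, the naso- and maxilloturbinates and the ethmoid turbinates according to the design text, so each sample is a mixture of cell types, and fewer cells of a type and less RNA per cell cannot be told apart.

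Glucuronidation and sulfation are conjugation reactions that make lipophilic compounds more soluble in water. UDP-glucuronosyltransferases sit in the endoplasmic reticulum and use UDP-glucuronic acid, while cytosolic sulfotransferases use 3'-phosphoadenosine 5'-phosphosulfate, known as PAPS. In olfactory epithelium these reactions are known for inactivating odorants and inhaled chemicals, chiefly in the sustentacular (supporting) cells and in the glands beneath them.

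Array medians ran from 134 to 192 signal units, and the background, taken as the 95th percentile of control probe sets without target, from 28.2 to 64.9. The arrays of a group correlated by 0.87 to 0.96 over all probe sets. The first principal component held 38.5% of the variance and the second 15.8%, on which male respiratory 7 and female respiratory 8 stood apart from the other 10 respiratory arrays, so results that change without them are given both ways. RNA integrity numbers were 8.2 to 8.8 on the 5 male olfactory arrays that have one and 9.1 to 9.3 on the 4 male respiratory ones, so that RNA integrity and tissue cannot be told apart in males. In females they were 8.3 on both olfactory arrays and 8.7 to 9.3 on the 6 respiratory arrays. Omp, the defining marker of mature olfactory neurons, had a signal of 21368 to 26936 on male olfactory arrays, 815 to 5359 on male respiratory, 25725 and 26058 on female olfactory and 1424 to 9625 on female respiratory arrays. All respiratory arrays thus carried Omp far above background. Of the mature neuron markers 7 of 8 measured were called higher in male olfactory epithelium and 0 lower, with summed signals of 64102 to 73512 against 2679 to 12182. Of 6 sustentacular markers 3 were higher and 2 lower, with sums of 71911 to 89471 against 29226 to 57855. In the other direction 4 of 5 basal cell markers were lower, with sums of 3018 to 10864 against 20153 to 66271, as were 5 of 6 leukocyte markers, with sums of 531 to 1190 against 2270 to 5302. Immature neuron markers (6 of 6) and glial markers (3 of 3, with sums of 5750 to 13178 against 887 to 2296) were also higher, and 3 of 4 endothelial and 3 of 6 goblet cell markers lower. Of 4 olfactory gland markers 1 was higher and 1 lower, with sums of 11348 to 29987 against 33853 to 55631. The part of these cell types, and of olfactory tissue in the respiratory samples, in the enzyme differences was not tested.

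Both tissues were compared in males by limma on log2(signal + 16), with p-values adjusted by Benjamini-Hochberg over all 31042 probe sets and a gene called where the adjusted p was under 0.05. A change is the difference of group means on that scale, olfactory minus respiratory, and SE is limma's standard error. Of the 9 enzymes 6 were higher in male olfactory epithelium, 2 were lower and 1 was not called. Over all 14217 named genes 31.8% were called, 14.0% higher and 17.8% lower. The median change of the 9 genes was 0.87, beside -0.05 over all named genes. Male olfactory and respiratory arrays did not overlap for 5 of the 9 enzymes, as for 17.8% of all genes. In females 5 of 9 were called, all higher, beside 22.5% of all genes, and the groups did not overlap for 6 of 9, beside 36.8% of all genes, a share that 2 arrays against 6 reach more easily. The female calls rest on 2 olfactory arrays: only Sult4a1 passed without female olfactory 6 (the other 4 gave adjusted p of 0.125 to 0.193 in limma) and 3 genes without female olfactory 8 (Ugt2a1 gave 0.0605 and Sult1b1 0.0602). With the animal as a fixed replicate block 1 of 9 was called in females, again Sult4a1. With RNA integrity as a covariate only Ugt2a1 and Sult4a1 kept their calls in males and only Sult4a1 in females, and the male change of Sult1a1 came to -0.0042, but this covariate and the tissue cannot be told apart. The male changes of the other calls lost were 2.42 for Sult1d1, -2.34 for Sult1c2, -0.92 for Papss1, 1.06 for Papss2 and 0.41 for Ugdh. This fit used the 17 arrays with an RNA integrity number. On those arrays without the covariate the changes were 3.72 for Sult1d1, -1.69 for Sult1c2, -0.89 for Papss1 and 0.55 for Ugdh. Those of Sult1c2 and Papss1 were thus no smaller in size with the covariate. Sult1c2 had already lost its call on those arrays without it (limma adjusted p = 0.068). The change of Papss2 was no smaller than its 0.87 over all 20 arrays.

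**Figure D1:**
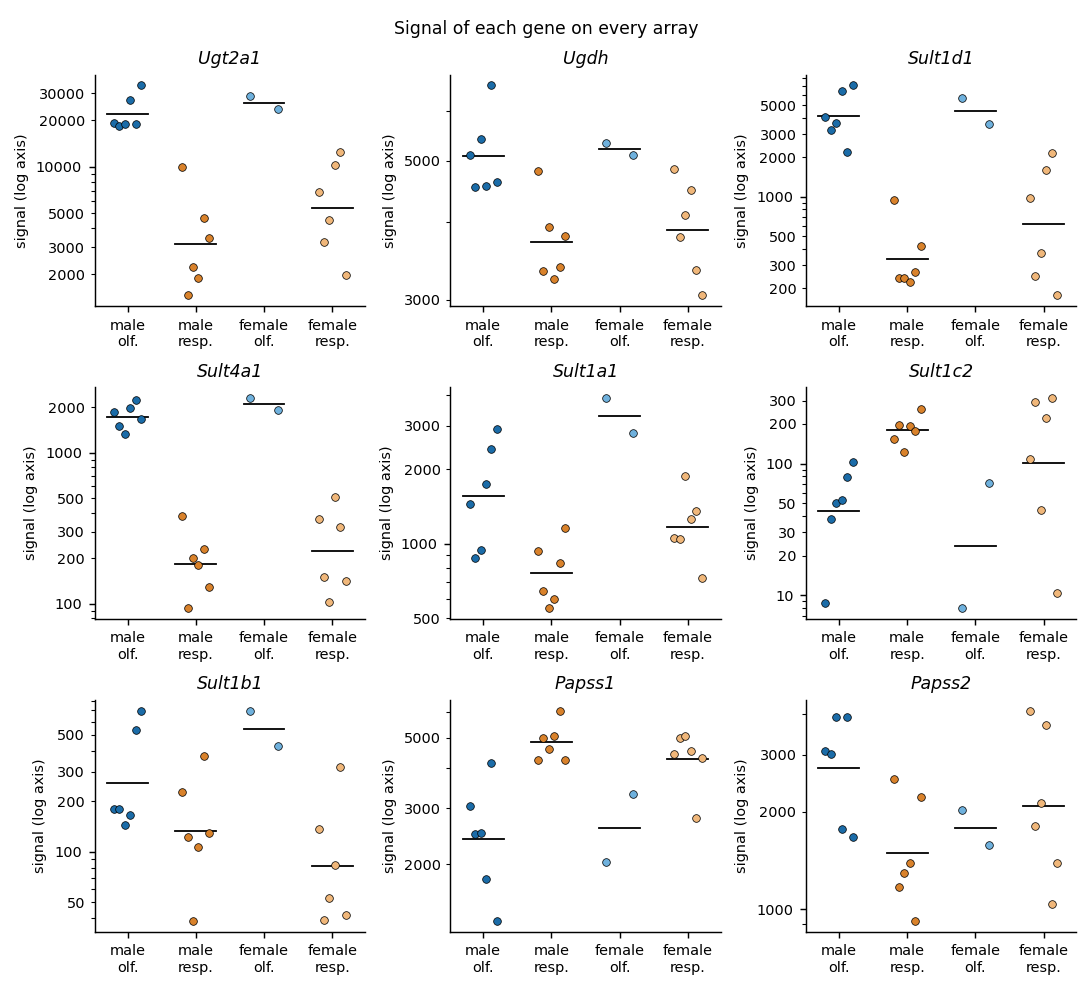
Signal (log axis) of each of the 9 genes on all 20 arrays by sex and tissue (olf., olfactory; resp., respiratory), with points for arrays and bars for the geometric mean of a group. Ugt2a1, Sult1d1 and Sult4a1 show olfactory arrays above every respiratory array in both sexes, whereas Sult1c2 and Papss1 show male olfactory arrays below the male respiratory ones.

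Ugt2a1, the olfactory UDP-glucuronosyltransferase, which conjugates odorants and steroids, was higher in olfactory epithelium in both sexes. Its signal was 18512 at the lowest, 19060 at the median and 33914 at the highest of the 6 male olfactory arrays. Male respiratory arrays gave 1459, 2843 and 9903 at the same points. Every olfactory array lay above every respiratory one, and 4 of the 6 olfactory arrays lay within a narrow band from 18512 to 19198 while the respiratory arrays spread widely. The change was 2.80 (SE 0.42, adjusted p = 2.02e-05 in limma, n = 6 and 6), a 6.98-fold difference. In females both olfactory arrays, at 23547 and 28897, exceeded the respiratory range of 1980 to 12433 with its median of 5674. The female change was 2.26 (SE 0.59, limma adjusted p = 0.00962, n = 2 and 6). The highest respiratory signals came from female respiratory 8 (12433), female respiratory 7 (10265) and male respiratory 1 (9903).

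The sulfotransferases did not move as a block. In males Sult1d1, Sult4a1 and Sult1a1 were higher in olfactory epithelium, Sult1c2 was lower and Sult1b1 was not called.

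Sult1d1 sulfates phenolic compounds such as catecholamines. Its male olfactory signals were 2206, 3833 and 7119 (lowest, median, highest) against 223, 253 and 943 in male respiratory epithelium. The groups did not overlap, and male respiratory 1 stood highest among the respiratory arrays. The male change of 3.56 (SE 0.49, limma adjusted p = 8.01e-06) was an 11.8-fold difference. Female olfactory arrays read 3582 and 5689, above the female respiratory range of 176 to 2138 (median 674). The female change was 2.82 (SE 0.70, limma adjusted p = 0.0066).

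Sult4a1 belongs to a sulfotransferase subfamily that is conserved among vertebrates, is known from neurons and has no settled substrate. It read 1331, 1755 and 2216 in male olfactory and 93.3, 190 and 381 in male respiratory epithelium. No arrays overlapped, and the signal was above background on all 20 arrays. The male change was 3.12 (SE 0.32, limma adjusted p = 1.77e-07) and the female change was also 3.12 (SE 0.46, limma adjusted p = 5.89e-05), with female olfactory signals of 1924 and 2301 against 102 to 507.

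Sult1a1, the main phenol sulfotransferase, differed less. Male olfactory arrays read 876, 1593 and 2922 and male respiratory arrays 549, 742 and 1156. The groups overlapped, since male olfactory 2 and 3 (876 and 946) lay under male respiratory 8 (1156). The change was 1.03 (SE 0.28, limma adjusted p = 0.00757), a 2.04-fold difference. Females showed 2798 and 3892 in olfactory against 731 to 1876 in respiratory epithelium without overlap, with a change of 1.48 (SE 0.39, limma adjusted p = 0.0105). Among males aged 11 weeks the change was 0.61 with a limma adjusted p of 0.102, so that the call was lost within that age.

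Sult1c2, of the 1C subfamily, ran the other way. Male respiratory arrays gave 123, 186 and 258, all above background, and male olfactory arrays 8.75, 51.3 and 103, of which 4 of 6 were above background. The male groups did not overlap. The change was -1.61 (SE 0.52, limma adjusted p = 0.024). The call was lost without male olfactory 1, the lowest array (-1.34, adjusted p = 0.068), and without male respiratory 8, the highest (-1.52, adjusted p = 0.0536). In females the olfactory signals were 7.97 and 70.9 and the respiratory ones 10.4 to 315. Female respiratory 6 and 9 lay among the olfactory values, and the female change of -1.51 (SE 0.73, limma adjusted p = 0.164) was not called. It passed without female respiratory 9 (-1.97, limma adjusted p = 0.0346), and over all fits that leave out an array it ran from -2.44 without female olfactory 8 to -0.58 without female olfactory 6, with adjusted p up to 0.795.

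Sult1b1, known for sulfating thyroid hormones, was not called in males. The male olfactory signals were 145, 181 and 697 and the respiratory signals 38.5, 126 and 374. The arrays overlapped, with male olfactory 10 (697) and male olfactory 7 (533) far above the other 4 olfactory arrays. Male olfactory 7 and 10 came from rats aged 14 weeks, and the other 4 from rats aged 11 or 13 weeks. The male change was 0.85 (95% interval -0.15 to 1.86, limma adjusted p = 0.222), which passed with 1.12 (limma adjusted p = 0.046) when both respiratory arrays that stand apart on the second component were left out. It was 0.56 (adjusted p = 0.463) without male respiratory 3, 0.58 (0.445) without male olfactory 10 and 0.56 (0.386) with the animal as a fixed replicate block. In females 430 and 691 stood above the respiratory range of 38.9 to 320, and the change of 2.46 (SE 0.69, limma adjusted p = 0.0147) was called. The difference between the male and female changes, 1.61, did not pass (limma unadjusted p = 0.0682, adjusted p = 0.924). The female olfactory arrays came from rats aged 13 (691) and 14 weeks (430), so sex and age were not balanced in it.

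Promoter sequences, 250 bases before to 50 after the start of the gene, were available from RefSeq on build GRCr8 for 7 of the 9 genes. Those of Sult1d1 and Sult1c2 are shown because both are sulfotransferase genes whose tissue differences had opposite signs. Capitals mark each CG pair. The promoter of Sult1d1 lies at chr14:20720829-20721128 on the plus strand and that of Sult1c2 at chr9:7436731-7437030 on the plus strand.
Sult1d1: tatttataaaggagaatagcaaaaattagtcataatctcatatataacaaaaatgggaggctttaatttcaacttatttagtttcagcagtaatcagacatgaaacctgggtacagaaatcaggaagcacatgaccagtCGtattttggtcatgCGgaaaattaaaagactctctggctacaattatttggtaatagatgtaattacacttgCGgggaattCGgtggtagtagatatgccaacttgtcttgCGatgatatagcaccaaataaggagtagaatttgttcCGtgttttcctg
Sult1c2: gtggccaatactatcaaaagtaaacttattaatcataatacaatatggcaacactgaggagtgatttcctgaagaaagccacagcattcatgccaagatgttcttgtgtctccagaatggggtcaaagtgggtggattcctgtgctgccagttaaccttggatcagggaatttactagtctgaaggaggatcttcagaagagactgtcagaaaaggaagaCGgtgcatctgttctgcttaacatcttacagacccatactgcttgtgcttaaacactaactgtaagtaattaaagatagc
The Sult1d1 sequence held 6 CG pairs and the Sult1c2 sequence 1, where the median over 33469 rat promoters of the same length was 7 and the middle 50% ran from 3 to 19. Searched on both strands, TATAAA occurred in Sult1d1 and not in Sult1c2, and was present in 14.2% of all promoters. CCAAT occurred in Sult1c2 and Sult1b1 and not in Sult1d1, and was present in 37.5%. The core of the Olf1/EBF site was in 0 of the 7 windows and in 0.834% of all. A match is a description of these letters only.

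In the same assembly Sult1d1, Sult1b1 and Ugt2a1 are consecutive protein-coding genes on chromosome 14, with Sult1e1 before and Ugt2a3, Ugt2b and Ugt2b15 among the genes after them. Along this row Sult1d1 and Ugt2a1 were called higher in male olfactory epithelium while Sult1b1 between them, with a change of 0.85, was not. In females Sult1d1, Sult1b1 and Ugt2a1 were each called higher, by 2.82, 2.46 and 2.26. Sult1e1, which sulfates estrogens, was above background on 2 of 6 male olfactory and 1 of 6 male respiratory arrays, so no direction is given. Ugt2b and Ugt2b15 were under background on all male arrays, so no direction can be read for them.

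Of the cofactor enzymes, the genes for PAPS synthesis had changes of opposite sign in males, although the Papss2 call depended on the probe set and on single arrays. Ugdh, UDP-glucose 6-dehydrogenase, makes UDP-glucuronic acid. It read 4535, 4859 and 6598 in male olfactory and 3241, 3592 and 4822 in male respiratory epithelium. The groups overlapped only through male respiratory 1 (4822). The male change was 0.45 (SE 0.15, limma adjusted p = 0.0334), a 1.37-fold difference. The call sat near the threshold: it was lost without male olfactory 1, 3 or 7 or male respiratory 2, 4 or 8 (changes of 0.38 to 0.46, adjusted p of 0.0533 to 0.0833). With the animal as a fixed replicate block the change was 0.49 and the adjusted p 0.105, within 11 weeks they were 0.33 and 0.155, and after quantile normalization 0.42 and 0.0644. Female olfactory signals of 5097 and 5344 lay above the female respiratory maximum of 4849, but the change of 0.42 (SE 0.22, limma adjusted p = 0.19) was not called.

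Papss1 and Papss2 each carry both steps of PAPS synthesis, ATP sulfurylase and adenylylsulfate kinase, and Papss2 is known for its need in cartilage. Papss1 was lower in olfactory epithelium, with 1326, 2500 and 4173 on male olfactory and 4260, 4800 and 6067 on male respiratory arrays. The groups did not overlap, although male olfactory 7 (4173) came close to male respiratory 1 (4260). The change was -1.01 (SE 0.22, limma adjusted p = 0.00152), a 2.01-fold difference. In females the olfactory signals were 2031 and 3324 and the respiratory ones 2803 to 5059 (median 4481), where female respiratory 8 was lowest. The female change was -0.72 (SE 0.32, limma adjusted p = 0.123). It passed without that array (-0.84, limma adjusted p = 0.0457), and without both respiratory arrays that stand apart (-0.84, adjusted p = 0.0372), but leaving out a female olfactory array moved it to -0.36 (without 6, adjusted p = 0.687) or -1.07 (without 8).

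Papss2 was higher in male olfactory epithelium by its brighter probe set, with 1679, 3044 and 3926 against 921, 1348 and 2526. The arrays overlapped, since male olfactory 4 and 10 (1767 and 1679) lay under male respiratory 1 and 8 (2526 and 2230). The change was 0.87 (SE 0.32, limma adjusted p = 0.0478). This call was lost in 12 of the 20 fits that leave out an array, with adjusted p from 0.0548 to 0.106: without male olfactory 1, 2, 3 or 7, male respiratory 2, 3, 4 or 7, female olfactory 6 or 8, or female respiratory 4 or 6. It was also lost without both respiratory arrays that stand apart (0.73, adjusted p = 0.0605). The second Papss2 probe set gave 354, 1710 and 2231 against 553, 1050 and 1684, a change of 0.21 (SE 0.40, limma adjusted p = 0.768), and the mean of both probe sets 0.54 (adjusted p = 0.293), so the probe sets disagreed on the call. In females the brighter probe set read 1586 and 2020 in olfactory and 1039, 1966 and 4099 in respiratory epithelium, with a change of -0.22 (95% interval -1.16 to 0.71, limma adjusted p = 0.785), and with the animal as a fixed replicate block the sign turned, to 0.26. The second probe set gave a female change of -1.21 (SE 0.57, limma adjusted p = 0.151). The female change of the brighter one was 1.09 below the male change, which did not pass (limma unadjusted p = 0.059, adjusted p = 0.924).

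As a log2 difference on each array, Papss2 minus Papss1 was -0.09 to 0.64 on male olfactory arrays (median 0.14) and -2.70 to -0.75 on male respiratory arrays (median -1.83). On female arrays it was -1.06 and -0.01 in olfactory and -1.63 to -0.11 (median -1.33) in respiratory epithelium. The size of this value depends on the probe sets and has no meaning of its own, but its shift between groups does not depend on the scaling of an array. The male groups were separate on it, and the female groups overlapped. With the second Papss2 probe set the male groups overlapped as well, at -1.86 to -0.17 in olfactory against -3.42 to -1.33 in respiratory epithelium.

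The promoters of both PAPS synthase genes are shown because the genes encode enzymes of the same reaction and had opposite signs in males. They lie at chr2:222714180-222714479 (Papss1) and chr1:239867463-239867762 (Papss2) on GRCr8, both on the plus strand, from RefSeq, with CG pairs in capitals.
Papss1: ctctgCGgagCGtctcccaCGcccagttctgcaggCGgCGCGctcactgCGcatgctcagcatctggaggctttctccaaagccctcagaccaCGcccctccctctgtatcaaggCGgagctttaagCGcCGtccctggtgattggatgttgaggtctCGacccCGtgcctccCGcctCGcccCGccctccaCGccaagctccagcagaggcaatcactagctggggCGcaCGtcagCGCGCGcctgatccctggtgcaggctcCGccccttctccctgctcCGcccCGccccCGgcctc
Papss2: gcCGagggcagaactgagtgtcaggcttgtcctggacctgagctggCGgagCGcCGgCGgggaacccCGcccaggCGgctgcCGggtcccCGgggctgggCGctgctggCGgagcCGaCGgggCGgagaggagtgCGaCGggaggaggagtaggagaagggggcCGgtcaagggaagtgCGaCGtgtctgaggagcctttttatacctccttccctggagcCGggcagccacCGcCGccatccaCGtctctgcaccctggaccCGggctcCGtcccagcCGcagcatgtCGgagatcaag
The counts of CG pairs were close, 26 for Papss1 and 27 for Papss2, and 13.9% and 12.7% of all promoters had more. Ugdh had 20 and Sult1a1 5. The letters GGGCGG, a GC box, were in Ugdh, Sult1a1, Papss1 and Papss2 and in 33.1% of all promoters. TATAAA was in Papss2 and not in Papss1, whereas CCAAT was in Papss1 and not in Papss2. GCGTG, the core letters of the aryl hydrocarbon receptor's site, were in Ugdh and Papss1 and in 29.7% of all, and TGACNNNGC, the core of the antioxidant response element, was in Ugdh alone and in 12.1% of all.

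**Figure D2:**
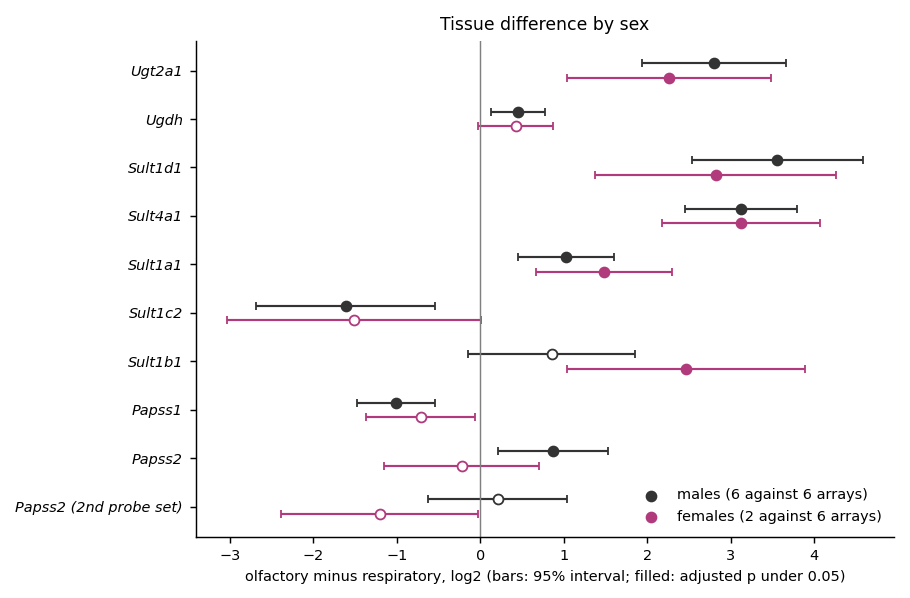
Olfactory minus respiratory change (log2) of every probe set of the 9 genes in males (dark) and females (magenta), with 95% intervals and filled points where the limma adjusted p was under 0.05. Sult1d1 reached 3.56 and Sult4a1 3.12 in males, whereas Sult1c2 at -1.61 and Papss1 at -1.01 lay left of 0 in males without a call in females.

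The 7 rats that gave both tissues allow the same difference to be read within an animal. Ugt2a1, Ugdh, Sult1d1, Sult4a1 and Sult1a1 were higher in the olfactory sample of 7 of 7 rats, and Sult1c2 was lower in 7 of 7. The share of all genes with the same sign in 7 of 7 rats was not computed, so these counts describe the genes one by one. Sult1b1 was higher in 6 of 7 (not in Male 1, at -0.31), Papss2 by its brighter probe set in 6 of 7 (not in Female 6, at -0.07), and Papss1 was lower in 6 of 7 (not in Female 8, at 0.24). The second Papss2 probe set was higher in 5 of 7 and lower in Male 4 (-0.26) and Female 6 (-1.19). Sizes varied widely for Ugt2a1, from 0.92 in Female 8 and 0.95 in Male 1 to 3.83 in Male 4, and for Sult1d1, from 0.74 in Female 8 to 4.74 in Male 4. Sult4a1 held to 2.23 to 4.29. Ugdh ran from 0.08 in Male 1 to 0.96 in Male 7, and Sult1a1 from 0.43 in Male 2 to 1.52 in Male 7. The smallest Ugt2a1 and Sult1d1 differences belonged to rats whose respiratory arrays, female respiratory 8 and male respiratory 1, had the highest signals of these genes in their group. The respiratory signal is subtracted in the difference, so this is in part built into the measure.

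**Figure D3:**
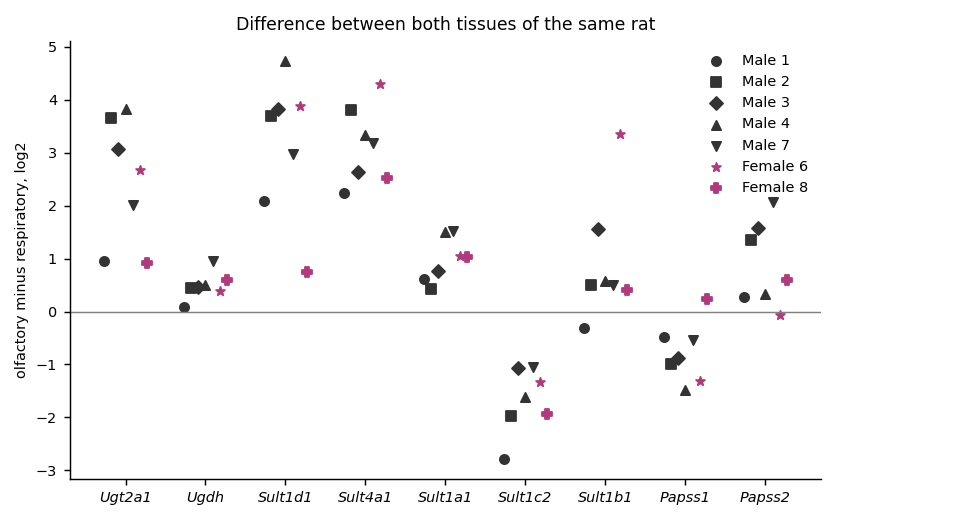
Difference in log2(signal + 16) between the olfactory and respiratory sample of each of the 7 rats with both tissues, by gene (brightest probe set). All symbols of Ugt2a1, Ugdh, Sult1d1, Sult4a1 and Sult1a1 lie above 0 and all of Sult1c2 below it, and Sult1b1, Papss1 and Papss2 have 1 rat each on the other side.

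Between the sexes 0 of the 9 enzymes were called in respiratory epithelium, beside 0.0141% of all genes, and 0 in olfactory epithelium, beside 0.0211%. In both tissues 1 of 9 had an unadjusted limma p under 0.05, and it was Sult1a1. It was higher in females by 0.61 in respiratory epithelium (95% interval 0.04 to 1.19, limma unadjusted p = 0.0369) and by 1.07 in olfactory epithelium (0.26 to 1.88, limma unadjusted p = 0.0122). Sex and age were not balanced in olfactory epithelium, where the females were 13 and 14 weeks old. Male olfactory 1, 2 and 3, at 1446, 876 and 946, were 11 weeks old. Male olfactory 4, at 1740, was 13 weeks old, and male olfactory 7 and 10, at 2427 and 2922, were 14 weeks old. The second Papss2 probe set was lower in female olfactory epithelium by -1.25 (limma unadjusted p = 0.0394, adjusted p = 0.958). None of these passed the adjustment, and male and female arrays of Sult1a1 overlapped in both tissues. The tissue difference itself differed between the sexes for 0 of 9 by limma, with 0 at an unadjusted p under 0.05, beside 0% of all genes called. These intervals leave room for sizeable differences, for Ugt2a1 from -0.08 to 1.64 in respiratory epithelium, female minus male.

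To show which enzymes moved with olfactory tissue markers, each was set against the mean log2 level of 8 mature olfactory neuron markers over the 12 respiratory arrays, each from another rat. The marker level ran from 8.09 to 10.91. Over these 9 relations, 5 had an adjusted permutation p under 0.05 by Pearson's r and 3 by Spearman's rho. The share of all named genes that would pass was not computed, so whether these counts are high among genes is not known. Pearson's r was 0.79 for Ugt2a1 (permutation p = 0.0022, adjusted p = 0.011, Spearman's rho 0.82, rho permutation p = 0.002). It was 0.78 for Sult1d1 (permutation p = 0.0037, adjusted 0.011, rho 0.73, p = 0.0094) and 0.77 for Papss2 (permutation p = 0.0033, adjusted 0.011, rho 0.62, p = 0.038). Sult4a1 gave 0.75 (permutation p = 0.005, adjusted 0.011, rho 0.64, p = 0.031) and Ugdh 0.73 (permutation p = 0.0077, adjusted 0.014, rho 0.62, p = 0.034). By rho, with adjustment over the 9 genes, Ugt2a1 (adjusted permutation p = 0.018), Sult1d1 (0.042) and Sult1a1 (0.046) passed, and Ugdh, Sult4a1 and Papss2 (0.057 each) did not. By r these 5 genes were higher on the respiratory arrays that carried more neuron marker signal. Sult1a1 gave 0.58 (permutation p = 0.047, adjusted 0.07, rho 0.69, p = 0.015). Sult1b1 gave 0.16, Sult1c2 -0.05 and Papss1 -0.23, with permutation p of 0.62, 0.87 and 0.47 and rho of 0.31, -0.20 and -0.37 (permutation p of 0.33, 0.54 and 0.24).

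Without the pair of arrays farthest from the median marker level, female respiratory 7 and 3, r was 0.80 for Ugt2a1 (adjusted permutation p = 0.0567) and 0.66 for Sult1d1 (adjusted 0.132). It fell to 0.56 for Ugdh, 0.49 for Sult4a1 and 0.45 for Papss2, with adjusted permutation p of 0.21, 0.266 and 0.282. None of the 9 relations passed over the 10 arrays without that pair. Without female respiratory 7 alone r was 0.63 for Sult4a1 (adjusted permutation p = 0.0713). Within the 6 male arrays r was 0.93 for Ugt2a1 (exact permutation p = 0.0083) and within the 6 female arrays 0.65 (exact permutation p = 0.16). For Sult1d1 the values were 0.92 in males and 0.67 in females (exact permutation p of 0.081 and 0.16), for Sult4a1 0.82 and 0.75 (0.053 and 0.1, exact permutation), for Ugdh 0.80 and 0.76 (0.2 and 0.069, exact permutation) and for Papss2 0.62 and 0.79 (0.23 and 0.075, exact permutation). All 5 genes had a positive r within each sex, and only that of Ugt2a1 in males had an unadjusted exact permutation p under 0.05. The values within males lean on 1 array. Male respiratory 1 had a marker level of 9.84, and the other male arrays ran from 8.09 to 8.62. Arrays share their scaling, and what part a share of olfactory tissue has in these relations was not tested.

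**Figure D4:**
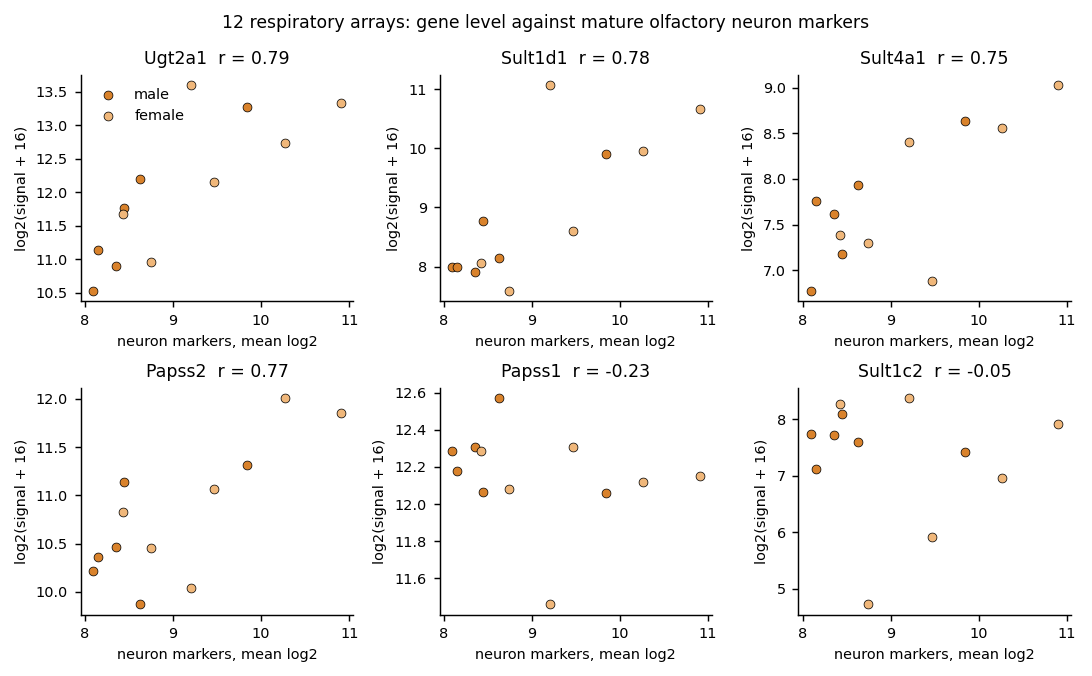
Level of 6 of the enzymes, log2(signal + 16), against the mean log2 level of mature olfactory neuron markers on the 12 respiratory arrays (6 male, 6 female). Ugt2a1 (r = 0.79), Sult1d1 (0.78), Sult4a1 (0.75) and Papss2 (0.77) rise with the markers, and Papss1 (-0.23) and Sult1c2 (-0.05) do not.

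Gene profiles most like each called enzyme were sought among all named genes by the root mean square difference of log2 levels over the 20 arrays, each gene centred on its own mean. Nearest to Ugt2a1 were Fstl5 (0.37), the cytochrome P450 gene Cyp3a9 (0.38) and Wfdc18 (0.46). Nearest to Sult1d1 were S100a5 (0.47), a calcium-binding protein gene known from olfactory neurons, Fstl5 (0.51) and Ugt2a1 itself (0.52). Sult4a1 lay nearest to Hist2h2be (0.34), the transcription factor gene Atf5 (0.35) and the neuronal gene Tagln3 (0.36). The lowest differences of all belonged to Papss1, with the glutaminyl-tRNA synthetase gene Qars1 (0.16), the secretory pathway transcription factor gene Xbp1 (0.17) and the sugar transporter gene Slc50a1 (0.17), each of which was also lower in male olfactory epithelium (-1.09, -0.99 and -0.88). Papss2 lay nearest to Rnf180, Kat6a and Ptprm (0.36 to 0.38), so that the genes closest to Papss1 and to Papss2 were not shared. Ugdh was nearest to Hcn4, Mat2b and Cnih1 (0.17 to 0.19) and Sult1a1 to Ntf3, Camsap3 and Slc22a18 (0.41 to 0.43). For Sult1c2 the nearest genes Pilrb2l4, Rhd and Batf3 differed by 0.77 to 0.78. The measure is not scaled to the spread of a gene, so it grows with that spread and does not rank closeness between the enzymes. The largest standard deviation (log2) within a group was 1.46 for Sult1c2 and 0.57 for Papss1.

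The other genes of both pathways were counted by role in the same male comparison, from lists of 118 genes of which 78 were measured. Of these 14 were higher in olfactory epithelium, 14 lower and 50 not called, or 35.9% called beside 31.8% of all named genes. With RNA integrity as a covariate 5 of the 78 were called, namely Pgm1, Chst8, Sulf2, Arsl and Slc26a1. The same fit called 2347 of all 31042 probe sets in males. These 5 are therefore a count within the lists and are not shown to exceed the rate over the array.

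Of 7 other genes listed with the UDP-glucuronosyltransferases limma called 0 (2 at an unadjusted p under 0.05), beside 31.8% of all named genes, with a median change of -0.11. Only 2 of them were above background on 6 or more of the 20 arrays. Ugt8, which is in this list but makes galactolipids of myelin rather than glucuronides, was above background on all 20 arrays. Its change was 0.57 (SE 0.25, limma adjusted p = 0.101). It passed after quantile normalization (0.66, adjusted p = 0.0295), with the animal as a fixed replicate block (0.70, 0.0429), with age as a block (0.57, 0.0496), within 11 weeks (0.67, 0.0227) and without male olfactory 7 (0.69, 0.0496). Of 8 other cytosolic sulfotransferases it called 0 likewise (2 at an unadjusted p under 0.05 in limma), with a median change of 0.03, and 5 were above background on 6 or more arrays. Sult1c3, chosen for mention after its values were seen, was bright in both tissues, with medians of 17354 in male olfactory and 24860 in male respiratory epithelium and a change of -0.51 (SE 0.26, limma adjusted p = 0.163; within 11 weeks -0.63, adjusted p = 0.0107). It follows Sult1c2 closely on chromosome 9.

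Among 10 genes of UDP-glucuronate supply and transport 4 were higher, 1 lower and 5 not called, with a median change of 0.33. The share called was 50%, beside 31.8% of all named genes. Pgm1, phosphoglucomutase, and Ugp2, which makes UDP-glucose, act before Ugdh. Pgm1 changed by 1.21 (SE 0.19, limma adjusted p = 4.42e-05; median signals of 1880 against 805) and Ugp2 by 1.11 (SE 0.22, limma adjusted p = 0.000438; 7528 against 3804), with no overlap of male arrays. In females they were higher by 1.29 and 1.17 (limma adjusted p of 0.00201 and 0.0103). Entpd5, a nucleoside diphosphatase of the endoplasmic reticulum, rose by 1.34 (limma adjusted p = 0.00256; called the same way by 2 of its 3 probe sets), and Uxs1, which turns UDP-glucuronate into UDP-xylose, by 1.11 (limma adjusted p = 0.00504). The lower gene, named after its values were seen, was Pgm2 at -0.97 (limma adjusted p = 0.00905).

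Among 15 genes of sulfate and PAPS supply and turnover 4 were higher, 4 lower and 7 not called, with a median change of -0.04. The share called was 53.3%, beside 31.8% of all named genes. Slc26a1, a sulfate transporter, changed by 2.23 (SE 0.44, limma adjusted p = 0.0005) and was above background on 6 of 6 male olfactory but 3 of 6 male respiratory arrays, and within 11 weeks it gave 1.52 (adjusted p = 0.064). Mpst, a sulfurtransferase of cysteine breakdown, changed by 1.18 (SE 0.18, limma adjusted p = 2.78e-05) and by 1.38 in females (limma adjusted p = 0.000582). Slc26a2, another sulfate transporter, changed by -1.08 (limma adjusted p = 0.0162) near background, above it on 1 of 6 male olfactory and 4 of 6 male respiratory arrays, and lost its call with the animal as a fixed replicate block (adjusted p = 0.0541) and within 11 weeks (0.168). Ethe1, a mitochondrial sulfur dioxygenase, changed by -1.02 (limma adjusted p = 0.0343), a call lost after quantile normalization (adjusted p = 0.0768) and without male olfactory 1, 2 or 3 or male respiratory 2, 3, 4 or 7 (0.0521 to 0.0852), and without both respiratory arrays that stand apart (-0.79, adjusted p = 0.056). Bpnt1, which removes the 3'-phosphoadenosine 5'-phosphate that sulfotransferases leave behind, was named after its values were seen, and changed by 0.81 (limma adjusted p = 0.0137). Bpnt2 of the same list, also named after its values were seen, was not called by its brightest probe set (-0.27, limma adjusted p = 0.31). However, 3 of its 4 probe sets were called lower. Slc35b3, a PAPS transporter of the Golgi named likewise, changed by -0.44 (limma adjusted p = 0.0111; 0.108 with the animal as a fixed replicate block).

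Golgi sulfotransferases, which take PAPS to sulfate carbohydrates and proteins, had 5 of 23 higher, 2 lower and 16 not called, with a median change of 0.31. The share called, 30.4%, was near the 31.8% of all named genes. Chst8, which sulfates N-acetylgalactosamine, changed by 3.18 (SE 0.27, limma adjusted p = 1.31e-08), with medians of 911 against 82.8 in males and no overlap, and by 3.34 in females (limma adjusted p = 4.9e-06). Both of its probe sets were called. Chst4 changed by 1.79 (limma adjusted p = 0.000658), Hs3st5, a heparan sulfate sulfotransferase, by 1.51 (limma adjusted p = 0.00136, called by 1 of its 2 probe sets) and Chst5 by -1.61 (limma adjusted p = 0.000602).

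A list of 15 genes tied to the removal of glucuronide and sulfate had 1 higher, 7 lower and 7 not called, beside 14.0% higher and 17.8% lower over all genes, with a median change of -0.33 beside -0.05. It holds helpers as well as hydrolases: the lower genes include Sumf1 and Sumf2, sulfatase modifying factors, and Ids, Arsb and Sulf2, which act on glycosaminoglycan sulfate rather than on small conjugates. Sulf2, which trims sulfate from heparan chains outside the cell, changed by -1.94 (SE 0.19, limma adjusted p = 7.42e-08), Arsl, an arylsulfatase, by -1.53 (SE 0.16, limma adjusted p = 1.99e-07) and Ids, iduronate sulfatase, by -1.10 (limma adjusted p = 0.000464). Each was also lower in females, by -1.87, -1.45 and -1.69 (limma adjusted p of 4.45e-05, 0.000113 and 0.000518). The higher gene was Abhd10, which hydrolyses acyl glucuronides, at 1.09 (limma adjusted p = 0.00066). Gusb, beta-glucuronidase, was named after its values were seen, and changed by -0.99 (limma adjusted p = 0.000592) with male medians of 787 against 1568 and no overlap.

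**Figure D5:**
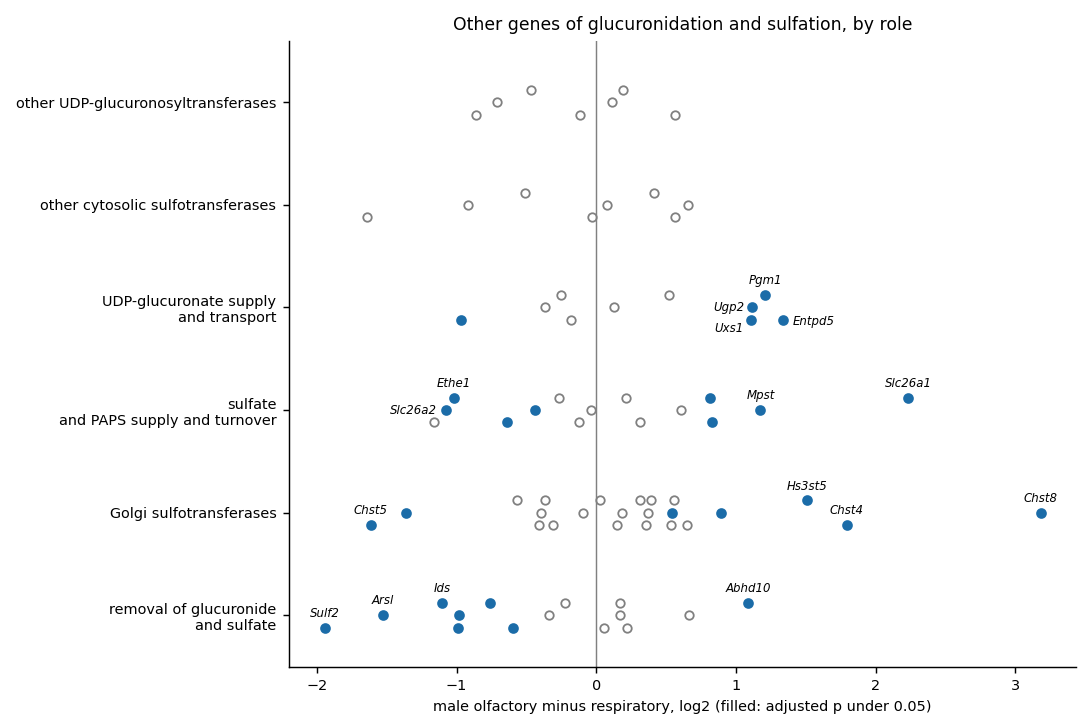
Male olfactory minus respiratory change (log2) of the 78 other measured genes of both pathways by role (the lowest row holds hydrolases and their helpers), filled where the limma adjusted p was under 0.05, with up to 4 named per role. The 7 genes listed with the glucuronosyltransferases, Ugt8 among them, and the 8 other cytosolic sulfotransferases hold no filled point. Chst8 lies farthest right at 3.18 and Sulf2 farthest left at -1.94.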

How the data were processed

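RNA was measured on 1 array per sample. The authors deposited a linear signal per probe set, in the unit intensity. The submitters' processing notes name GCOS 1.0, and its algorithm and scaling were not given in the sources used here. In the deposited values the mean after trimming 2% at each end was near 500 on every array, and this scaling was kept. Of 31099 probe sets 57 controls were left out.

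A value of 16 was added before log2. The model, in limma 3.58.1 (R 4.3.3), held 4 group means over 20 arrays and used eBayes with an intensity trend. Tissues were compared within each sex, sexes within each tissue, and both tissue contrasts with each other. Every limma p is two-sided and adjusted over 31042 probe sets. Each gene is represented by its brightest probe set by mean log2 level, and percentages of all genes use the same rule. Nothing in the labels says that samples of a group were pooled. The script was tested on simulated data. Correlations used 100000 permutations, or exact ones within a sex, two-sided, and were adjusted over the 9 genes.

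Samples that share a sex and an animal number in the labels count as 1 animal. After removing group means, both arrays of an animal correlated by -0.18 to 0.25, above 0 in 4 of 7, and the consensus correlation was 0.039. The number of arrays limits the precision.

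The 9 genes and all lists were chosen with earlier results of these data known. The rule names the 9 genes, up to 4 called genes of each pathway list with the largest change, and the 3 nearest profiles of each called enzyme. Other named genes were chosen after their values were seen. Alternatives covered the pseudocount, normalization, a filter on low signals, animal, age and RNA integrity, and leaving out each array, and after seeing the data also both respiratory arrays apart on the second component. Symbols were updated through RefSeq tables of GRCr8, by Entrez identifier for 20758 of 20826 probe sets with a single symbol.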

Additional observations from a re-analysis of the deposited data

Results flagged for a closer look

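Among 30 groups of 6 arrays checked for a single array far from the others, 2 held one, and chance alone marks about 1 in 20 such groups. Papss1 on female respiratory 8 had a signal of 2803, while the other 5 female respiratory arrays ran from 4322 to 5059. The second Papss2 probe set on the same array read 386, while the others ran from 1157 to 2030. This array also had the highest Ugt2a1 and Sult1d1 signals of the female respiratory group, 12433 and 2138, and stood apart on the second component.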

How the results depend on the processing

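RNA integrity as a covariate moved the counts most. The fit used the 17 arrays with an RNA integrity number. Without the covariate these gave 7203 probe sets in males, 7 enzymes in males, 5 in females and 26 pathway genes. With the covariate 2347 probe sets passed in males (main 7824), 2 of 9 enzymes in males (main 8), 1 in females (main 5) and 5 pathway genes (main 28). Ugt2a1 (2.22, adjusted p = 0.027 in limma) and Sult4a1 (2.67, adjusted p = 0.00477) kept their calls, Sult1d1 gave 2.42 (adjusted p = 0.0852) and Papss1 -0.92 (adjusted p = 0.221), and Sult1a1 (-0.0042) and Sult1b1 (-0.10) changed sign. Integrity numbers of both tissues did not overlap in males, so this covariate and the tissue cannot be told apart. With the animal as a fixed replicate block 7 enzymes passed in males and 1 in females, and with it as a random replicate block 8 and 5; apart from Ugdh the block changed no call of an enzyme in males. Leaving out each array in turn gave 5 to 8 enzymes in males, lowest without male olfactory 1, 1 to 6 in females, 0 between the sexes or for the difference between sexes, 25 to 32 pathway genes and 6807 to 8821 probe sets. Both pseudocounts, the filter on low signals and age as a block kept every count within 1.5 times. Against neuron markers, Sult1c2 changed sign within females (0.18), with sustentacular markers in their place (0.14) and without female respiratory 4 or 6 (-0.22 to 0.0088 over all such fits), and Papss1 within females (0.0567). Papss2 turned to 0.26 in females with the fixed replicate block. Over all alternatives the limma adjusted p in males ran from 2.09e-06 to 0.027 for Ugt2a1, 7.1e-08 to 0.00477 for Sult4a1, 2.01e-06 to 0.0852 for Sult1d1, 0.00227 to 0.998 for Sult1a1, 0.00426 to 0.205 for Sult1c2, 0.00025 to 0.221 for Papss1, 0.0174 to 0.444 for Ugdh, 0.0107 to 0.313 for Papss2 and 0.046 to 0.962 for Sult1b1. Causes were not tested. Signals near background limit what can be said of Sult1c2, Slc26a2 and most other glucuronosyltransferases.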

Other observations

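The probe set that matches both Sult1c2 and RGD1562392 read 8.70 to 132 on male olfactory arrays (3 of 6 above background) and 52.7 to 132 on male respiratory arrays (5 of 6 above background). Its male change was -0.90 (SE 0.45, limma adjusted p = 0.163), of the same sign as that of the Sult1c2 probe set used above but not called.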
